A study of Mus musculus with 2 samples.

Results

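The small noncoding RNA genes measured in GMPs, the granulocyte-monocyte progenitors of the BM, comprised 87 genes of the 24421 gene symbols for which expression values were deposited. They were the symbols beginning with Snord, Snora or Scarna, or with Mir followed by a digit, whose RPKM (reads normalized to library size and to gene length) was above 0 in at least 1 of the 2 libraries. They were thus chosen by their own RPKM, from 1288 listed symbols of these classes, and 1201 were listed at 0 in both libraries. At the edge of this rule stood 16 genes with a single read over both libraries, at 0.245 to 1.72 RPKM. The 87 genes were 27 C/D box snoRNA genes (Snord), 30 H/ACA box snoRNA genes (Snora), 5 genes of small Cajal body RNAs (Scarna) and 25 microRNA genes (Mir), of which 21 were hairpins and 4 were longer host transcripts. The study compared GMPs purified by flow cytometry from non-tumor-bearing (NTB) female mice with GMPs from female mice carrying orthotopic 4T1 tumors. The 4T1 line comes from a mammary carcinoma of the mouse. Per the labels the mice of both groups were F1 semi-syngeneic (H-2b/d), the methods of the study describe BALB/c and C57BL/6 mice, and neither says how many animals gave the cells. Total RNA was extracted with TRIzol and made into a standard Illumina library, with 1 library for NTB-GMP and 1 for 4T1-GMP. There was therefore no replicate error and no test. Every interval reflects counting error alone, and no molecular identifiers marked PCR copies.

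C/D box snoRNAs guide 2′-O-methylation and H/ACA box snoRNAs guide pseudouridylation, mostly of ribosomal RNA. A few snoRNAs are needed for cleavage of the ribosomal RNA precursor instead. Small Cajal body RNAs guide the same modifications on spliceosomal RNAs. Most mouse snoRNAs are cut out of the introns of host genes, many of which encode ribosomal proteins or are noncoding snoRNA host genes. MicroRNAs are cut from hairpins in longer transcripts, so reads counted on a hairpin gene are not reads of the mature microRNA. In bulk samples such as these, fewer cells of a type and less RNA per cell cannot be told apart.

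The sequences below belong to a choice of the snoRNA and scaRNA genes described here, and those of the abundant Snora74a and Snord17 are not shown. Among the C/D box genes with at least 10 reads, they show how short those with the lowest log2 ratios were. They are GENCODE M21 transcripts on GRCm38 (mm10), written 5′ to 3′. Capitals mark the C box core TGATGA within the first 30 bases and the D box CTGA within the last 20 bases of the Snord genes, and ACA within the last 12 bases of the Snora and Scarna genes. Snord47 lies at chr1:161038082-161038158 (+) over an exon of Gas5. Snord49a (chr11:62603450-62603521, +) and Snord49b (chr11:62603079-62603150, +) lie in introns of 2410006H16Rik, and Snord82 (chr1:86356261-86356330, -) lies in an intron of Ncl. Snord15b (chr7:99479563-99479707, -) and Snord22 (chr19:8725866-8725991, +) overlap exons of Rps3 and Snhg1. Snora7a (chr6:115807975-115808114, -), Snora3 (chr7:109520120-109520251, +) and Snora44 (chr4:132309941-132310069, +) overlap exons of Rpl32, Rpl27a and Snhg12. Scarna13 (chr12:105031075-105031349, -) lies in an intron of Snhg10.
Snord47: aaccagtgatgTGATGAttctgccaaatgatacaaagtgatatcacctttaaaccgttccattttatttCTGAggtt
Snord49a: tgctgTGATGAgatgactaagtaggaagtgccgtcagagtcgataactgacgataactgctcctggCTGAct
Snord49b: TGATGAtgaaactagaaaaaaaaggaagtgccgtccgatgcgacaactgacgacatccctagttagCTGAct
Snord82: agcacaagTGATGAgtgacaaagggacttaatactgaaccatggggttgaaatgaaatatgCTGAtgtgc
Snord15b: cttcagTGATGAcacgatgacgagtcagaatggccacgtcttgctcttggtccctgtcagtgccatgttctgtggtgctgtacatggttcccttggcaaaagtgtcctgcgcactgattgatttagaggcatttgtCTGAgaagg
Snord22: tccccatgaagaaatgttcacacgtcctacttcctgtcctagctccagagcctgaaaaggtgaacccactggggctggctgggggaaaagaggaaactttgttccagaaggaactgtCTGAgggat
Snora7a: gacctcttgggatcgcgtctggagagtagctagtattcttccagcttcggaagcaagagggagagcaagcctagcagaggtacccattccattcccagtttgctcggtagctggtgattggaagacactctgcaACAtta
Snora3: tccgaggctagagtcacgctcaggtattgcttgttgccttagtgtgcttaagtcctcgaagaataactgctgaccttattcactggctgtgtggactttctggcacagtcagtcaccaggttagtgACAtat
Snora44: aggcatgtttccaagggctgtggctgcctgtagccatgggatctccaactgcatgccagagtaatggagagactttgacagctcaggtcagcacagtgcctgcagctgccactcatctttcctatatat
Scarna13: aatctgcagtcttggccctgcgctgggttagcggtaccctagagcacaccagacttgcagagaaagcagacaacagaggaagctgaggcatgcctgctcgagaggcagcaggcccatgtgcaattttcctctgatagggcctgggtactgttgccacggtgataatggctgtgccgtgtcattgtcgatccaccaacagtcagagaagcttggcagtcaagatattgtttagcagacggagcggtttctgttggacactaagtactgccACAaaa

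The sequences followed the class names. Of the 27 Snord members, 20 held TGATGA in the first 30 bases and 27 held CTGA in the last 20 bases, against 1.02% and 9.24% of the 141767 GENCODE transcripts. ACA stood in the last 12 bases of 28 of 30 Snora members and 4 of 5 Scarna members, against 17.2% of all transcripts. Only the sense strand was searched, and these matches are a description of the letters. Snord22 had no TGATGA and Snora44 no ACA in its window. Snord49a and Snord49b shared a run of 13 bases (aggaagtgccgtc), and Snord15a and Snord15b, both in Rps3, shared a run of 21 bases (agaggcatttgtctgagaagg) that ended at the last base of both genes.

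For the microRNA hairpins with at least 10 reads, the RefSeq mature sequences (GRCm38.p6) are shown with the seed, bases 2 to 8, in capitals. The 4 seeds were different, and the seeds of hairpin genes with fewer reads were not compared.
mmu-miR-6240: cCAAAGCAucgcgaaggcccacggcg
mmu-miR-6236: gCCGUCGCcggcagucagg
mmu-miR-8091: aGGAGUGAgugguaagcuggug
mmu-miR-703: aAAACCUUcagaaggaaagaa

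Whole reads behind the RPKM were recovered with library sizes of 10180365 in NTB-GMP and 30016263 in 4T1-GMP, so 4T1-GMP was 2.95 times as deep. Of these library sizes, Rn45s, the ribosomal RNA precursor, took 17.0% (NTB-GMP) and 6.98% (4T1-GMP). All 8 GMP markers were above 0 in both libraries, with a summed level of 10134 against 15042 RPKM, and they were split: 4 were lower in 4T1-GMP, among them Cd34 at least 2-fold, and 4 were higher, among them Prtn3 and Ctsg at least 2-fold. All 10 markers of mature neutrophils were at least 2-fold higher in 4T1-GMP, with a summed level of 506.6 against 3976 RPKM, and 4 of 6 monocyte and dendritic markers were at least 2-fold lower, from 116.8 to 29.4 RPKM summed. Of the erythroid markers, Hba-a1 and Hbb-bt were at 0 and the other 3 were at least 2-fold lower, from 3.20 to 0.417 RPKM summed. Of the epithelial markers, Epcam and Krt14 were at 0 in both libraries, Krt8 had 1 and 6 reads, and Krt18 had 12.8 and 8.90 RPKM (183 and 374 reads). The part of these differences in the values of the small RNA genes was not tested.

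As a group, small RNA genes had lower levels in 4T1-GMP. The 87 genes had 4951 reads in NTB-GMP and 6742 in 4T1-GMP, or 486.3 and 224.6 RPM (reads scaled to a library size of 1000000), a log2 ratio of the summed reads of -1.11 (95% Clopper-Pearson interval -1.17 to -1.06). Although its library was the shallower, NTB-GMP had more reads than 4T1-GMP for 44 of the 87 genes. The same count was not made over all genes, nor was the share of all genes with reads in only 1 library. Ratios of single genes, 4T1-GMP over NTB-GMP, used log2(RPKM + 0.1), so differences of low genes are understated. A total of 37 members had at least 10 reads over both libraries, and 25 of these were at least 2-fold lower and 1 at least 2-fold higher in 4T1-GMP. Among all 12490 genes with at least 10 reads, 7.68% were at least 2-fold lower and 5.16% at least 2-fold higher, with a median log2 ratio of 0.03. The median of the 37 members was -1.55. Some members had 10 reads only through the library in which they were high, so the sums over whole classes, which leave out no member, are given beside these counts.

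**Figure D1:**
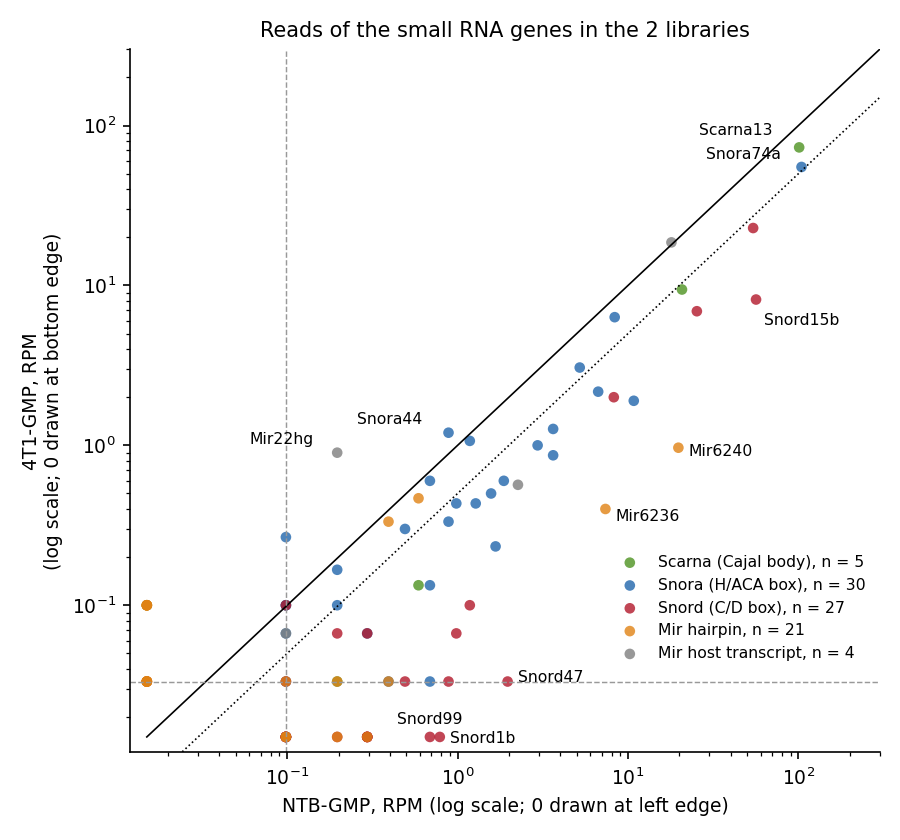
RPM of the 87 genes in NTB-GMP (x axis) and 4T1-GMP (y axis), both on log scales, with points coloured by class, 0 drawn at the edge, and dashed lines at 1 read. The solid line is equality and the dotted line is a 2-fold lower level in 4T1-GMP; most Snord points lie below the dotted line, Mir6240 and Mir6236 lie far below it, and Snora44 and Mir22hg lie above equality.

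C/D box snoRNA genes differed most of the snoRNA classes. The 27 Snord genes summed to 1566 reads in NTB-GMP and 1215 in 4T1-GMP, or 153.8 and 40.5 RPM (log2 ratio -1.93, interval -2.04 to -1.82). Reads were found for 26 of them in NTB-GMP and for 14 in 4T1-GMP, without the like counts over all genes. All 8 with at least 10 reads were at least 2-fold lower in 4T1-GMP, with a median log2 ratio of -3.13. Their intervals lay wholly below 0, a count that was not made over all genes. The median was -1.96 over the 4 with at least 50 reads. Snord15b, a guide in a ribosomal protein gene, had 388.8 RPKM (574 reads) in NTB-GMP and 56.3 RPKM (245 reads) in 4T1-GMP, a log2 ratio of -2.79 (-3.01 to -2.57). Its neighbor in the same host, Snord15a, had 55.8 and 13.5 RPKM from 84 and 60 reads (log2 ratio -2.04, -2.55 to -1.55). Both Rps3 snoRNAs were thus lower in 4T1-GMP, though the 2 genes stood at different levels.

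Snord22 had 201.1 RPKM (258 reads) in NTB-GMP and 54.7 RPKM (207 reads) in 4T1-GMP, a log2 ratio of -1.88 (-2.15 to -1.61). Snord17, the longest Snord member at 221 bases, had 245.3 RPKM (552 reads) and 103.4 RPKM (686 reads), the smallest difference of the 8 at -1.25 (-1.41 to -1.08). Among these 8, the largest differences were those of the shortest genes, which reached 10 reads mostly through NTB-GMP. Short Snord genes with fewer reads did not enter this comparison. Snord47, one of the snoRNAs of Gas5, had 30.2 RPKM from 20 reads in NTB-GMP and 0.513 RPKM from 1 read in 4T1-GMP (log2 ratio -5.63, -11.26 to -3.24). Snord49a had 9 reads and 1 read (14.3 and 0.537 RPKM, log2 ratio -4.49, -10.18 to -1.88), and Snord49b had 12 and 3 reads (18.7 and 1.59 RPKM, -3.48, -6.03 to -1.67). Snord82 had 10 and 2 reads (14.4 and 0.980 RPKM, -3.75, -7.11 to -1.65). Each of these 4 short genes had only 1 to 3 reads in 4T1-GMP, and their intervals span several log2 units.

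The other 19 Snord genes had fewer than 10 reads each, and together 47 reads in NTB-GMP against 10 in the deeper 4T1-GMP library. Of these, 13 had reads only in NTB-GMP and 1, Snord69, only in 4T1-GMP, where it had 1 read. The share of all genes under 10 reads with reads in only 1 library was not counted. Snord1b had 8 reads (10.2 RPKM) in NTB-GMP and none in 4T1-GMP, and its interval, which covers the counting error of both libraries, reached up to -2.33 on the log2 scale. Snord99 had 7 reads (12.3 RPKM) and none, with an interval up to -2.09. Of the 4 snoRNA genes of Rpl13a, Snord32a and Snord34 had 3 reads each in NTB-GMP and none in 4T1-GMP, Snord33 had 2 reads in each library, and the remaining one was listed at 0. The interval for 3 reads against 0 reached up to -0.28, close to no difference.

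H/ACA box snoRNA genes were lower as well, by a smaller amount. The 30 Snora genes summed to 1629 reads in NTB-GMP and 2355 in 4T1-GMP, or 160.0 and 78.5 RPM (log2 ratio -1.03, -1.12 to -0.94). Nearly all were found in both libraries, 30 in NTB-GMP and 29 in 4T1-GMP, again without the like counts over all genes. Of the 19 with at least 10 reads, 12 were at least 2-fold lower and 0 at least 2-fold higher in 4T1-GMP, with a median log2 ratio of -1.51. The interval lay wholly below 0 for 13 and held 0 for 6, and the share of all genes with such intervals was not counted. Snora74a was the most abundant, at 526.4 RPKM (1061 reads) in NTB-GMP and 278.1 RPKM (1653 reads) in 4T1-GMP, a log2 ratio of -0.92 (-1.03 to -0.81). It held 23.9% of the snoRNA and scaRNA reads in NTB-GMP and 27.3% in 4T1-GMP. Without it, the Snora genes had 568 and 702 reads, a log2 ratio of -1.25 (-1.42 to -1.09).

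The 5 largest differences among the 19 Snora genes were those of Snora3, Snora7a, Snora33, Snora70 and Snora28. Snora7a, in Rpl32, had 83.8 RPKM (110 reads) in NTB-GMP and 14.7 RPKM (57 reads) in 4T1-GMP, a log2 ratio of -2.50 (-3.0 to -2.03). Snora3, in Rpl27a, had 17 and 7 reads (13.9 and 1.94 RPKM, -2.78, -4.35 to -1.5), and Snora70, in Rpl10, had 37 and 26 reads (28.2 and 6.71 RPKM, -2.05, -2.85 to -1.31). Snora33, in Rps12, had 7 and 4 reads (-2.28, -4.59 to -0.39), and Snora28, in Eif5, had 16 and 15 reads (-1.63, -2.77 to -0.54). Snora23, in an intron of the importin gene Ipo7, had 36.3 RPKM (68 reads) and 11.8 RPKM (65 reads), a log2 ratio of -1.62 (-2.14 to -1.11). Snora43 (37 and 38 reads, -1.51, -2.21 to -0.83) and Snora21 (30 and 30 reads, -1.55, -2.34 to -0.78) were lower as well.

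Among the Snora genes that differed by less than 2-fold were Snora81, Snora78 and Snora44. Snora17 (12 and 32 reads, log2 ratio -0.14, -1.14 to 0.95) and Snora65 (7 and 18 reads, -0.19, -1.52 to 1.30) did so too. Snora81, in the translation factor gene Eif4a2, had 31.7 RPKM (53 reads) in NTB-GMP and 18.7 RPKM (92 reads) in 4T1-GMP (log2 ratio -0.76, -1.27 to -0.25). Snora78 had 53.2 RPKM (85 reads) and 40.3 RPKM (190 reads), a log2 ratio of -0.40 (-0.78 to -0.01). Snora44 alone of the 19 was higher in 4T1-GMP, at 7.56 RPKM (9 reads) and 10.3 RPKM (36 reads), but its interval of -0.64 to 1.68 around 0.44 held 0. Of the 30 Snora genes, 16 shared at least 1 run of 30 bases with another annotated gene, among them Snora7a, Snora3, Snora70, Snora33, Snora44 and Snora81, so reads of those genes may be divided between copies. Among the Snord genes 2 did (Snord1b and Snord1c) and among the Scarna genes 0.

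Small Cajal body RNA genes differed least in their sum, which rested on 1 gene. The 5 Scarna genes summed to 1247 reads in NTB-GMP and 2482 in 4T1-GMP, or 122.5 and 82.7 RPM (log2 ratio -0.57, -0.67 to -0.47). Scarna13 had 367.2 RPKM (1028 reads) in NTB-GMP and 265.4 RPKM (2191 reads) in 4T1-GMP, a log2 ratio of -0.47 (-0.58 to -0.36). Without Scarna13, the sums were 219 and 291 reads, and the log2 ratio was -1.15 (-1.41 to -0.89), near that of the Snora genes. Scarna6, in an intron of the autophagy gene Atg16l1, had 83.6 RPKM (211 reads) and 38.0 RPKM (283 reads), a log2 ratio of -1.13 (-1.40 to -0.87). Scarna3a had 6 and 4 reads (4.99 and 1.13 RPKM, -2.05, -4.41 to -0.07). Of the 3 genes with at least 10 reads, 2 were thus at least 2-fold lower, and Scarna13 was not. Scarna3b had 2 reads and 1 read, and Scarna8 had 0 and 3, too few for a comparison.

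**Figure D2:**
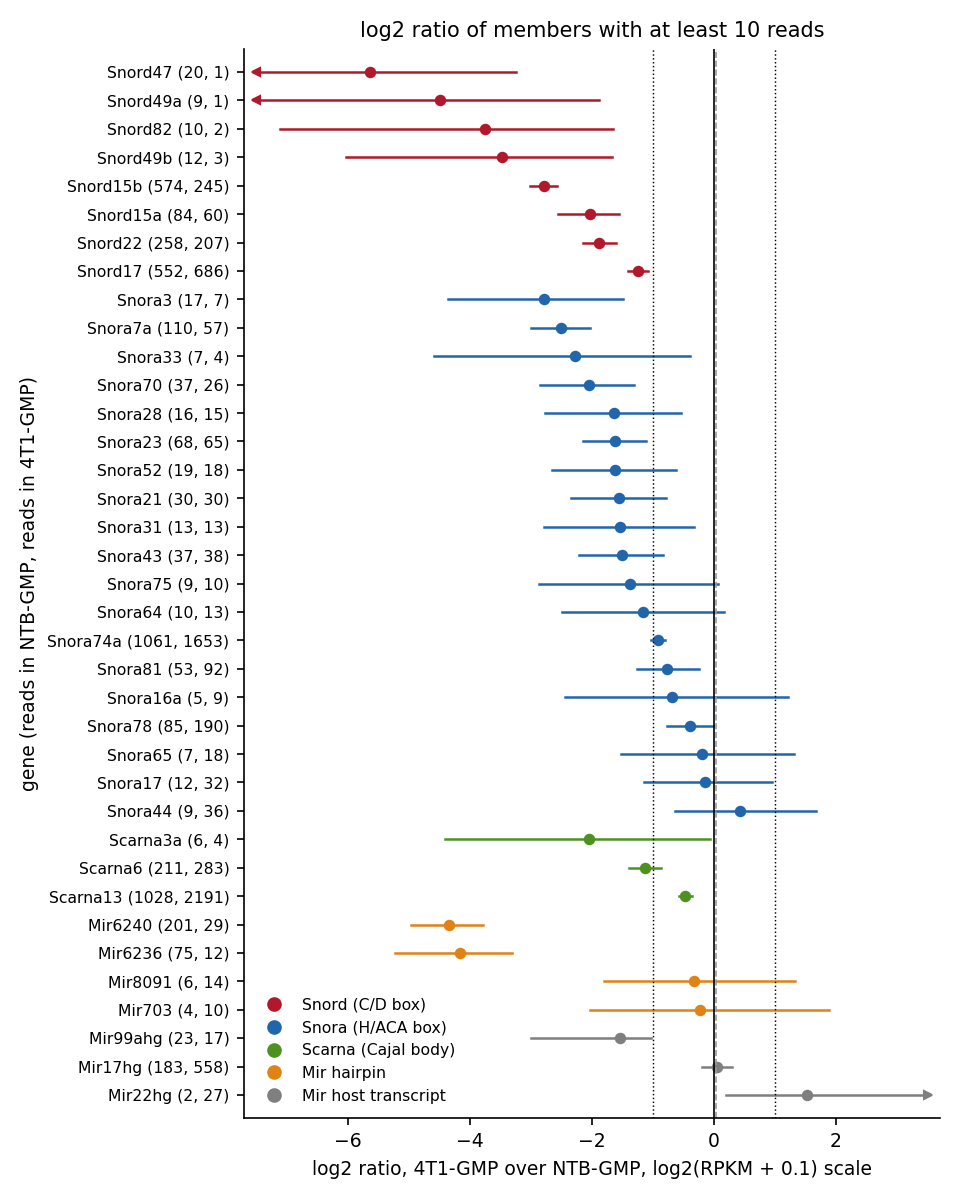
log2 ratio (x axis, 4T1-GMP over NTB-GMP, log2(RPKM + 0.1) scale) of each of the 37 genes with at least 10 reads, with 95% intervals on the reads (arrows where they run off the axis) and the reads of both libraries beside each name. The dotted lines mark 2-fold and the dashed line the median of all genes at 0.03; all 8 Snord genes lie left of the left dotted line, whereas the Snora genes run from -2.78 to 0.44.

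MicroRNA hairpins held few reads outside 1 pair of genes. The 21 hairpin genes with reads summed to 300 reads in NTB-GMP and 86 in 4T1-GMP, or 29.5 and 2.87 RPM (log2 ratio -3.36, -3.73 to -3.01). Mir6240 had 168.8 RPKM (201 reads) in NTB-GMP and 8.26 RPKM (29 reads) in 4T1-GMP, a log2 ratio of -4.34 (-4.97 to -3.79). Mir6236 had 59.9 RPKM (75 reads) and 3.25 RPKM (12 reads), a log2 ratio of -4.16 (-5.22 to -3.32). These hairpins lie at chr5:114851948-114852064 (+) and chr9:110281287-110281409 (+), outside any annotated host gene, and shared no run of 30 bases with a GENCODE transcript of another gene. The sequence of Rn45s was not among those transcripts, and the share of ribosomal RNA reads in these 2 values was not tested. Rn45s itself had a log2 ratio of -1.28.

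Without Mir6240 and Mir6236, the other 19 hairpins had 24 reads in NTB-GMP and 45 in 4T1-GMP, or 2.36 and 1.5 RPM. Mir8091 had 6 and 14 reads (4.24 and 3.36 RPKM, log2 ratio -0.33, -1.81 to 1.33). Mir703 had 4 and 10 reads (3.60 and 3.06 RPKM, -0.23, -2.03 to 1.89) and shared runs of 30 bases with 6 other genes, most with Eef1a1. No difference between the libraries was detectable at this depth for either of them. The remaining 17 had at most 5 reads each, 4 of them only in NTB-GMP and 10 only in 4T1-GMP, a split that was not counted over all genes.

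The hairpins of the well-known myeloid microRNAs had no reads, like 1142 of the 1163 listed hairpin genes. All 16 listed hairpins of myeloid and inflammatory microRNAs were at 0 in both libraries, among them Mir223, Mir142, Mir155 and Mir21a. The 14 listed hairpins of stem and progenitor microRNAs (such as Mir125a and Mir10a), the 10 of the Mir17-92 cluster and its paralogs, 2 erythroid and 6 neural hairpins were likewise at 0. A value of 0 on a hairpin gene says nothing of the mature microRNA in this kind of library. Host transcripts were read instead. Mir17hg, the host transcript of the Mir17-92 cluster, had 7.69 RPKM in NTB-GMP against 7.95 RPKM in 4T1-GMP from at least 183 and 558 reads, a log2 ratio of 0.05 (-0.19 to 0.30).

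Mir22hg had 0.111 RPKM in NTB-GMP against 0.509 RPKM in 4T1-GMP, from at least 2 and 27 reads, a log2 ratio of 1.53 (0.20 to 5.31), and was the only one of the 37 members with at least 10 reads that was at least 2-fold higher in 4T1-GMP. With a pseudocount of 1 in place of 0.1 its log2 ratio was 0.44, under 2-fold, and it lay under the alternative filters of 50 reads and of a mean RPKM of 1. Mir99ahg had 0.717 and 0.180 RPKM, from at least 23 and 17 reads, and was lower at -1.55 (-2.99 to -1.03). Mir155hg had 0.233 RPKM in NTB-GMP against 0.158 RPKM in 4T1-GMP, from at least 1 and 2 reads, too few for a comparison. Together the 4 host transcripts had 20.5 RPM in NTB-GMP and 20.1 in 4T1-GMP, a log2 ratio of -0.03 (-0.26 to 0.21).

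Gene length moved with the difference. Over the 62 snoRNA and scaRNA genes, the 24 under 100 bases had 100 reads in NTB-GMP and 20 in 4T1-GMP (log2 ratio of the summed reads -3.88, -4.65 to -3.18). The 31 genes of 100 to under 150 bases had 1284 and 872 reads (-2.12, -2.24 to -1.99), and the 7 genes of 150 bases or more had 3058 and 5160 reads (-0.81, -0.87 to -0.74). The sums of the longer ranges rested largely on few genes. Snord15b and Snord22 held 574 and 258 of the 1284 NTB-GMP reads and 245 and 207 of the 872 4T1-GMP reads. Scarna13 and Snora74a held 1028 and 1061 of the 3058 reads, and 2191 and 1653 of the 5160. From the shortest range to the longest, the genes with at least 10 reads had median log2 ratios of -4.12, -1.62 and -0.92. Spearman's rho between length and log2 ratio was 0.49 across the 30 snoRNA and scaRNA genes with at least 10 reads. It was 0.16 across the 19 Snora genes among them. Both are given as a description, since the points share both libraries. The genes under 100 bases among the 30 reached 10 reads mostly through NTB-GMP, so the filter itself bears on the 0.49. Length and class were entangled, because the Snord genes had a median length of 77 bases and the Snora genes 120.5 bases. From 100 to under 150 bases, the 3 Snord genes had a log2 ratio of summed reads of -2.40 (-2.56 to -2.24) and the 25 Snora genes -1.59 (-1.81 to -1.38). At 150 bases or more the 1 Snord gene, Snord17, was at -1.25, the 4 Snora genes at -0.90 (-1.0 to -0.80) and the 2 Scarna genes at -0.56 (-0.66 to -0.46). Single genes overlapped between the classes, since in the shorter range the 3 Snord genes ran from -2.79 to -1.88 and the Snora genes with at least 10 reads from -2.78 to 0.44, and in the longer range Snora23, at -1.62, was lower than Snord17. The 3 Scarna genes of the shorter range had 8 reads in each library, at -1.56 (-3.17 to 0.05).

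**Figure D3:**
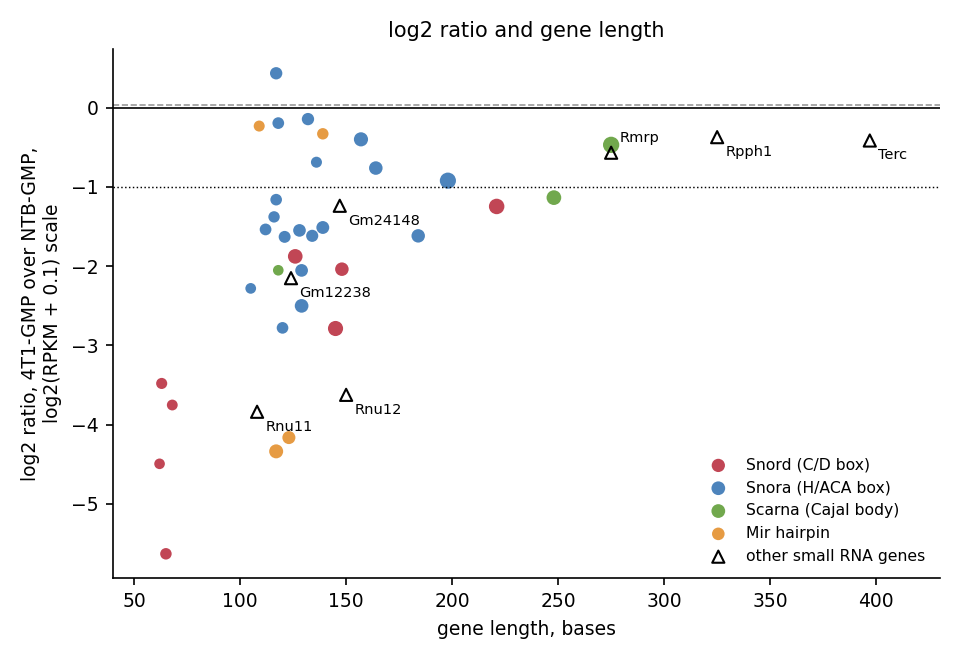
log2 ratio (y axis, log2(RPKM + 0.1) scale) against gene length in bases (x axis) for the snoRNA, scaRNA and hairpin genes with at least 10 reads, with point area growing with the logarithm of the reads and open triangles for other small RNA genes. The Snord genes under 100 bases lie from -3.48 to -5.63, and the members of 150 bases or more from -0.40 to -1.62. Longer genes lie low as well, namely the hairpins Mir6240 (117 bases, -4.34) and Mir6236 (123 bases, -4.16), Rnu11, and Rnu12 (150 bases, -3.62). Rmrp, Rpph1 and Terc lie near the long members.

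Small RNA genes of other classes spread over a like range. Rnu12, the U12 RNA of the minor spliceosome (150 bases), had 233.8 RPKM (357 reads) in NTB-GMP and 18.9 RPKM (85 reads) in 4T1-GMP, a log2 ratio of -3.62 (-3.99 to -3.29). Rnu11, its partner U11 (108 bases), had 16 and 3 reads (-3.84, -6.40 to -2.17). The longer Rmrp (275 bases), Rpph1 (325 bases) and Terc (397 bases), the RNAs of RNase MRP, RNase P and telomerase, had log2 ratios of -0.57, -0.37 and -0.41. Other genes were grouped by their longest GENCODE transcript and members by a length taken mostly from RefSeq, so the 2 measures differ. Among other genes with at least 10 reads and 100 to under 150 bases, 3 of 3 were at least 2-fold lower. Their median log2 ratio was -2.15, against 17 of 23 and -1.62 for members in that range, hairpins included. From 150 to under 300 bases, 1 of 6 other genes was lower, with a median of -0.048, against 3 of 7 and -0.92 for members. From 300 to 599 bases, 8.85% of 113 were at least 2-fold lower and the median log2 ratio was 0.25. The part of gene length in the class differences was not tested.

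The host genes did not share the difference. Of the 62 snoRNA and scaRNA genes, 57 lay within a listed gene on the same strand, 28 over an annotated exon and 29 in an intron of that host. The 45 host genes with at least 10 reads had a median log2 ratio of -0.00018, with a range of -1.15 to 0.49, and 1 of them, Zbed3, the host of Snora47, was at least 2-fold lower. For the 26 members with at least 10 reads in such a host, 25 had a lower log2 ratio than the host and 20 were lower by at least 2-fold, with a median difference of -1.87. The median difference was -1.98 for the 15 members over a host exon and -1.75 for the 11 members in a host intron. Summed over all 28 members over a host exon, the log2 ratio of the reads was -2.17 (-2.31 to -2.04). Over the 29 in a host intron it was -0.83 (-0.91 to -0.75). The exon sum rested largely on Snord15b and Snord22, and the intron sum on Scarna13 and Snord17. Within the Snora genes alone the sums were closer, at -1.50 (-1.73 to -1.27) over a host exon and -1.01 (-1.26 to -0.75) in a host intron. Rps3 had 526.2 and 550.3 RPKM (log2 ratio 0.06) while its Snord15b was at -2.79 and its Snord15a at -2.04. Gas5, a noncoding snoRNA host gene, had 189.4 and 125.4 RPKM (-0.59) while Snord47 was at -5.63.

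Members of 1 host did not always differ alike. In Snhg12 (32.3 and 31.0 RPKM, log2 ratio -0.06), Snord99 had 7 reads in NTB-GMP and 0 in 4T1-GMP, Snora16a had 5 and 9 reads (-0.69, -2.44 to 1.21), and Snora44 had 9 and 36 reads (0.44). In Ncl, the nucleolin gene (162.1 and 168.1 RPKM, 0.05), Snord82 was at -3.75 and Snora75, with 9 and 10 reads, at -1.38 (-2.86 to 0.07). In 2410006H16Rik (68.0 and 65.8 RPKM, -0.05), Snord49a and Snord49b were both lower. Reads over a shared exon may come from the host, and 34 of the 62 genes overlapped an annotated exon of another gene.

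**Figure D4:**
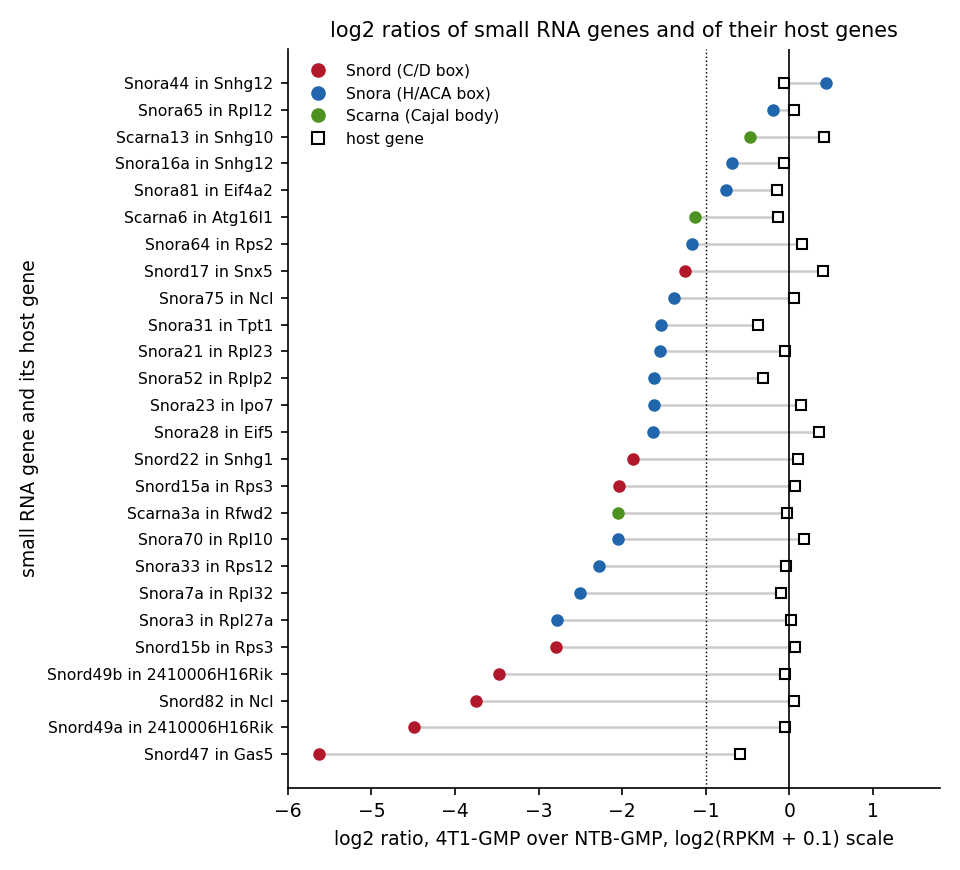
log2 ratios (x axis, log2(RPKM + 0.1) scale, 4T1-GMP over NTB-GMP) of the 26 snoRNA and scaRNA genes with at least 10 reads (coloured points) and of their host genes (open squares), joined by a line and sorted by the small RNA gene (y axis). The hosts stay near 0 while 25 of the 26 small RNA genes lie to their left; Snora44 lies to the right of Snhg12.

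Genes of the proteins that bind or process these RNAs stood within 2-fold between the libraries. Of 16 listed genes of snoRNP proteins and their assembly factors, 0 were at least 2-fold lower and 0 at least 2-fold higher, with a median log2 ratio of 0.15. Fbl, the methyltransferase of the C/D box particle, had 140.9 and 140.7 RPKM (log2 ratio -0.0027), Nop56 had 136.8 and 144.3 RPKM (0.08) and Nop58 had 120.2 and 134.9 RPKM (0.17). Dkc1, the pseudouridine synthase of the H/ACA box particle, had 73.6 and 81.6 RPKM (0.15). Of 10 microRNA processing genes, 0 passed 2-fold in either direction and the median was -0.14, with Drosha, the nuclear hairpin nuclease, at 22.4 and 18.5 RPKM (-0.28) and Dicer1 at 16.1 and 16.3 RPKM (0.01). Of 5 listed snoRNAs known for cleavage of the ribosomal RNA precursor, only Snord22 had reads. The 2 listed snoRNA genes of the Prader-Willi region were at 0 in both libraries.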

How the data were processed

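The authors deposited RPKM, reads normalized to library size and to gene length, with 1 value per gene symbol for each of the 2 libraries. The submitters' processing notes name CASAVA 1.8.2, cutadapt 1.2.1, TopHat2 2.0.13, Picard 1.97, HTSeq 0.6.1 and edgeR 3.12.1, with the genome build mm10. The gene models, the use of strand and the treatment of overlapping genes are not given in the sources used here. Library sizes were found from single-exon small RNA genes, whose RPKM and RefSeq lengths (GRCm38.p6) gave whole reads within 0.001 for 76 of 79 genes in NTB-GMP and 72 of 75 in 4T1-GMP. These library sizes were not whole numbers, so they may have been rescaled upstream. For 6 members, namely Mir17hg, Mir22hg, Mir99ahg, Mir155hg, Snora28 and Snora62, the reads are the smallest whole numbers that give the ratio, hence lower bounds.

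Ratios are differences of log2(RPKM + 0.1). A gene was counted as lower or higher at 2-fold, among genes with at least 10 reads over both libraries. Intervals are 95% Clopper-Pearson intervals on the reads, scaled by library size. The read recovery was tested on simulated data. Hosts, sequences and overlaps came from GENCODE M21. The named genes were, in each class, the 5 with most reads and the 5 largest differences in each direction among those with at least 10 reads, besides the listed pathway genes. Genes named with fewer reads, Zbed3 and the small RNA genes of other classes were chosen after their values were seen. So were Snora16a, Snora17, Snora21, Snora43, Snora47, Snora62, Snora65 and Snora75. The members and lists were chosen with earlier results of these data known. The alternatives were pseudocounts of 1 and 0.01, no filter, at least 50 reads, a mean RPKM of at least 1, library sizes without Rn45s, centring on the median of all genes, and leaving out members that overlap an exon of another gene. Values were computed in Python 3.11.15 (numpy 2.4.6; pandas 2.3.3; scipy 1.17.1; matplotlib 3.10.9).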

Additional observations from a re-analysis of the deposited data

How the results depend on the processing

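No paired analysis was possible because neither condition had more than 1 library, which also left no replicate to omit. Under the other settings, 76 of 99 class and host values and 108 of 112 values of named genes stayed on their side of 0 and moved by less than the half-width of their counting intervals, which is wide for genes of few reads, or, for counts, by no more than 1.5 times. Without a filter, the Snord genes at least 2-fold lower numbered 25 of 27 and those higher 1, the Snora and Scarna genes higher 1 each, and the Mir genes 10 lower and 11 higher. With at least 10 reads, the main setting, the median was -1.13 over 3 Scarna genes and -0.33 over 7 Mir genes. Of those 7 Mir genes, 3 were at least 2-fold lower and 1 at least 2-fold higher. With at least 50 reads, the lower genes were 4 Snord, 5 Snora and 1 Scarna, and 0 Mir genes were higher. The medians were then -0.80 for Scarna and -4.16 for Mir. With a mean RPKM of at least 1, 18 Snord genes were lower, 1 Snora and 0 Mir genes were higher, and the Mir median was -3.17. Without members overlapping an exon of another gene, 5 Snord, 4 Snora and 1 Scarna genes were lower, 0 Mir genes were higher and the Mir median was -2.25. These settings change which genes are counted. With a pseudocount of 1, 0 Mir genes were higher, since Mir22hg went from 1.53 to 0.44, and Snord49a went from -4.49 to -3.31. Leaving Rn45s out of the library sizes moves log2 ratios by -0.16 before the pseudocount is added, and by other amounts for genes of low RPKM. The median of the hosts was then -0.16 and Mir17hg turned to -0.11, while Snora74a stood at -1.08 and Scarna13 at -0.63. Mir99ahg stood at -0.54 with a pseudocount of 1. The medians of Snord ran from -3.75 to -1.96 and those of Snora from -1.68 to -1.33 over these settings. Beside them, the share of all genes at least 2-fold lower ran from 2.50% to 9.86% and the share higher from 2.05% to 6.19%. Few reads limit the single genes, since 50 of the 87 had fewer than 10 reads, together 88 in NTB-GMP and 66 in 4T1-GMP.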
